A study of Mus musculus with 8 samples.

Results

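Translation initiation factors (gene symbols Eif1 to Eif6) and elongation factors (Eef1 and Eef2) were examined in brain RNA of db/db mice fed a ketogenic diet or a normal diet. The members were every symbol of the count table beginning Eif1 to Eif6, Eef1 or Eef2, leaving out the kinases named Eif2ak and the sex-linked pair Eif2s3x and Eif2s3y. The rule found 64 genes among 17983 symbols, of which 50 were named as initiation and 14 as elongation factors. By role, 43 were core initiation factors, 6 were core elongation factors and 15 were regulators, relatives or modifying enzymes.

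The study sequenced brain messenger RNA from 8 libraries of db/db mice, which carry a mutation of the leptin receptor and develop obesity and type 2 diabetes. The ketogenic group (n = 4 libraries) received a fat-rich diet with very little carbohydrate, and the control group (n = 4 libraries) received a normal diet. All 8 libraries share the db/db genotype, so no lean animals entered any comparison. Diets began at an age of 9 weeks, and whole brains were collected at 6 months. Nothing in the labels says that each library came from a separate mouse, so the p-values measure the spread between these libraries. Total counts were 34450860 to 40233361 per library. The libraries are labelled male, yet the Y-linked genes Ddx3y, Eif2s3y, Kdm5d and Uty had between 0 and 5 counts in each library, in both groups alike. On the first principal component, which held 22.9% of the variance, ketogenic replicate 3 lay at -34.4, the other ketogenic replicates at -11.2 to -2.9 and the controls at 5.94 to 22.7.

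Initiation factors bring the initiator tRNA, the messenger RNA and the ribosomal subunits together at the start codon. eIF2 carries the initiator tRNA, eIF2B recharges eIF2 with GTP, eIF3 organises the small subunit, and the cap-binding eIF4E, the scaffold eIF4G and the helicase eIF4A recruit the message. Elongation factors then extend the chain: eEF1A delivers each aminoacyl-tRNA, the eEF1B complex recharges eEF1A with GTP, and eEF2 moves the ribosome along by a codon. In neurons, control of these steps through phosphorylation of eIF2, eIF4E-binding proteins and eEF2 is part of how protein synthesis at synapses is regulated. Messenger RNAs of elongation factors, like those of ribosomal proteins, commonly begin with a run of pyrimidines.

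Diet differences among the translation factors were small. Of the 60 members tested, 5 rose (Eef1a1, Eef1b2, Eef2k, Eif1 and Eif3f) and 1 fell (Eif5a2) in ketogenic brains, at an edgeR quasi-likelihood adjusted p under 0.05. Over all 14895 tested genes, 6.52% passed, 3.30% higher and 3.22% lower. The 6 members are 10% of those tested. Without adjustment, 15 members were higher and 10 lower at p under 0.05, beside 24.6% of all genes (12.1% higher and 12.5% lower). The groups did not overlap for 16 members, 11 higher and 5 lower in ketogenic brains, beside 13.7% of all genes (7.22% higher and 6.51% lower). The log2 difference was above 0 for 35 members (58.3%), beside 49.3% of all genes. Among core elongation factors 2 of 6 rose and 0 fell, with a median log2 fold change of 0.17. Among core initiation factors 2 of 42 rose and 1 fell, with a median of 0.02, beside a median of -0.00 over all tested genes. No test of one class against the other was made.

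To show what the 6 genes that passed and their closest counterparts look like at their starts, 80 bases around the annotated start of each are printed, 5′ to 3′ on the gene's strand, from 50 before it to 30 from it onward (RefSeq, build GRCm38.p6, most upstream start). Capitals mark motif matches on either strand. The first motif searched was TATAA, the core of a TATA box. The second was a short pyrimidine run spelled CTCTT. The third was the palindrome CACGTG, called an E-box. The windows were chr9:78481695-78481774 on the minus strand for Eef1a1, chr2:181156986-181157065 on the minus strand for Eef1a2, and chr10:81176581-81176660 on the plus strand for Eef2. The others, all on the plus strand, were chr1:63176781-63176860 for Eef1b2, chr11:100319899-100319978 for Eif1, chr7:108934365-108934444 for Eif3f, chr3:28781227-28781306 for Eif5a2 and chr7:120842781-120842860 for Eef2k.
Eef1a1: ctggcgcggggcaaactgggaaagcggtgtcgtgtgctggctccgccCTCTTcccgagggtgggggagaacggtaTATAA
Eef1a2: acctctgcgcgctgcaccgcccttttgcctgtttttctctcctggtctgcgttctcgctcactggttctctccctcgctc
Eef1b2: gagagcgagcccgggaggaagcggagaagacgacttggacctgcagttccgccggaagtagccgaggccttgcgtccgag
Eef2: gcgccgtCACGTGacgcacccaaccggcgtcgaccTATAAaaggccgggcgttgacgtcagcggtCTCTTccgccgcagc
Eif1: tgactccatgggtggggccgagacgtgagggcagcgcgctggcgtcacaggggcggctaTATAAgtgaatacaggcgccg
Eif3f: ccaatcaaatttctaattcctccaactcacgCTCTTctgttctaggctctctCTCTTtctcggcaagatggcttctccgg
Eif5a2: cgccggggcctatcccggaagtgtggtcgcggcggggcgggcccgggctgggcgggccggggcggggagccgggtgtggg
Eef2k: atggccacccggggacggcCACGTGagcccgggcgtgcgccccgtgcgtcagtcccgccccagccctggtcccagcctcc

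The window of Eef2 held each of the motifs searched, that of Eef1a1 held the TATA and pyrimidine letters, and those of Eef1a2, Eef1b2 and Eif5a2 held none of them. The motifs do not overlap one another in these windows. The TATAA letters lie shortly before the annotated start in Eef2 and after it in Eef1a1 and Eif1. None of these places is where a TATA box of that start would be. The Eef1a1 window lies inside the gene bounds given below, not at their upstream end. RefSeq promoters were matched for 48 of 64 members. TATAA was found in 4 of these 48 windows (8.33%), against 4.37% of the 11800 matched promoters of tested genes. CTCTT was found in 9 of 48 (18.8%), against 16.4%, and CACGTG in 6 of 48 (12.5%), against 3.81%. The member windows are not limited to tested genes: they include Eif4a3l1, untested, which held TATAA and CTCTT. All motif counts are letter matches near 1 annotated start per gene, not measured sites.

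Eef1a1 and Eef1a2 encode the eEF1A carriers, and Eef1a2 is the form that neurons and muscle use in adult life. Eef1a1 (GENCODE gene bounds chr9:78478449-78489151 on GRCm38) had 3300, 3540, 3440 and 3270 counts scaled by library size (CPM) in ketogenic replicates 1 to 4, against 2840, 2820, 3170 and 3060 CPM in control replicates 1 to 4. All 4 ketogenic libraries lay above all 4 controls. The log2 fold change was 0.19 ± 0.05 (SE), a 1.14-fold rise, with an edgeR adjusted p of 0.0438. Eef1a2 had 1400, 1400, 1480 and 1380 CPM in the ketogenic libraries and 1450, 1400, 1420 and 1440 CPM in the controls. These values overlapped, with a log2 difference of -0.01 ± 0.05 and an adjusted p of 0.932.

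The ratio of Eef1a1 to Eef1a2 counts, which does not depend on library scaling, was 2.35, 2.53, 2.32 and 2.37 in ketogenic libraries and 1.96, 2.01, 2.24 and 2.13 in control libraries. It averaged 2.39 ± 0.0923 in ketogenic and 2.08 ± 0.124 in control libraries (SD, n = 4 each), without overlap. Eef1a2 has a GC content of 60.6% and Eef1a1 one of 47.4%, and correction for GC content and length, described further on, gave log2 differences of -0.08 for Eef1a2 and 0.21 for Eef1a1. GC content was read from the transcript closest to the deposited gene length. For Eef1a2 that length is 7980 bases, against 2084 in its principal GENCODE transcript, and its GC content and corrected value rest on it. Of the defining markers of neurons 0 of 8 passed, beside 6.52% of all tested genes, a share at which so short a list would hold few calls or none. Their log2 differences ran from -0.20 for Snap25 to 0.14 for Tubb3, with 3 above 0 and 5 below. Their summed level was 7710 to 9260 CPM in ketogenic and 8330 to 9270 CPM in control libraries. In whole brain, fewer cells of a type and less RNA per cell cannot be told apart.

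The eEF1B complex comprises the exchange subunits encoded by Eef1b2 and Eef1d and the structural subunit encoded by Eef1g. Eef1b2 (chr1:63176825-63180486) had 104, 122, 117 and 112 CPM in ketogenic libraries, against 86.7, 94.9, 102 and 97.8 CPM in controls. It rose by a log2 fold change of 0.26 ± 0.06 (edgeR adjusted p = 0.0304), and the groups did not overlap. The gene shares bases with Ndufs1 on the opposite strand, and the use of strand in counting is not given in the sources used here. Eef1g had 279, 325, 311 and 298 CPM in ketogenic and 276, 264, 277 and 278 CPM in control libraries, and its log2 difference of 0.15 ± 0.05 did not pass (adjusted p = 0.108). Eef1d gave a similar size, 0.17 ± 0.07, with overlapping groups (adjusted p = 0.123).

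Eef2, the translocase, had 1360, 1350, 1390 and 1390 CPM in ketogenic libraries, against 1160, 1190, 1300 and 1250 CPM in control libraries. All ketogenic libraries lay above all controls, but the log2 difference of 0.16 ± 0.05 did not pass (adjusted p = 0.0655). Eef2k encodes the kinase that phosphorylates and inactivates eEF2. Eef2k (chr7:120842831-120907450) had 40.2, 38.1, 41.9 and 34.4 CPM in ketogenic and 31.6, 31.8, 35.0 and 30.4 CPM in control libraries. Its rise of 0.26 ± 0.08 on the log2 scale passed with an adjusted p of 0.0486, although ketogenic replicate 4 lay below control replicate 3. The remaining genes named for elongation factors did not pass. Eef1e1, a partner of the multisynthetase complex, gave 0.02 ± 0.08, and Eef1akmt1, whose product methylates eEF1A, gave 0.16 ± 0.11. Of the 4 tested methyltransferase genes 0 passed, beside 6.52% of all tested genes.

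**Figure D1:**
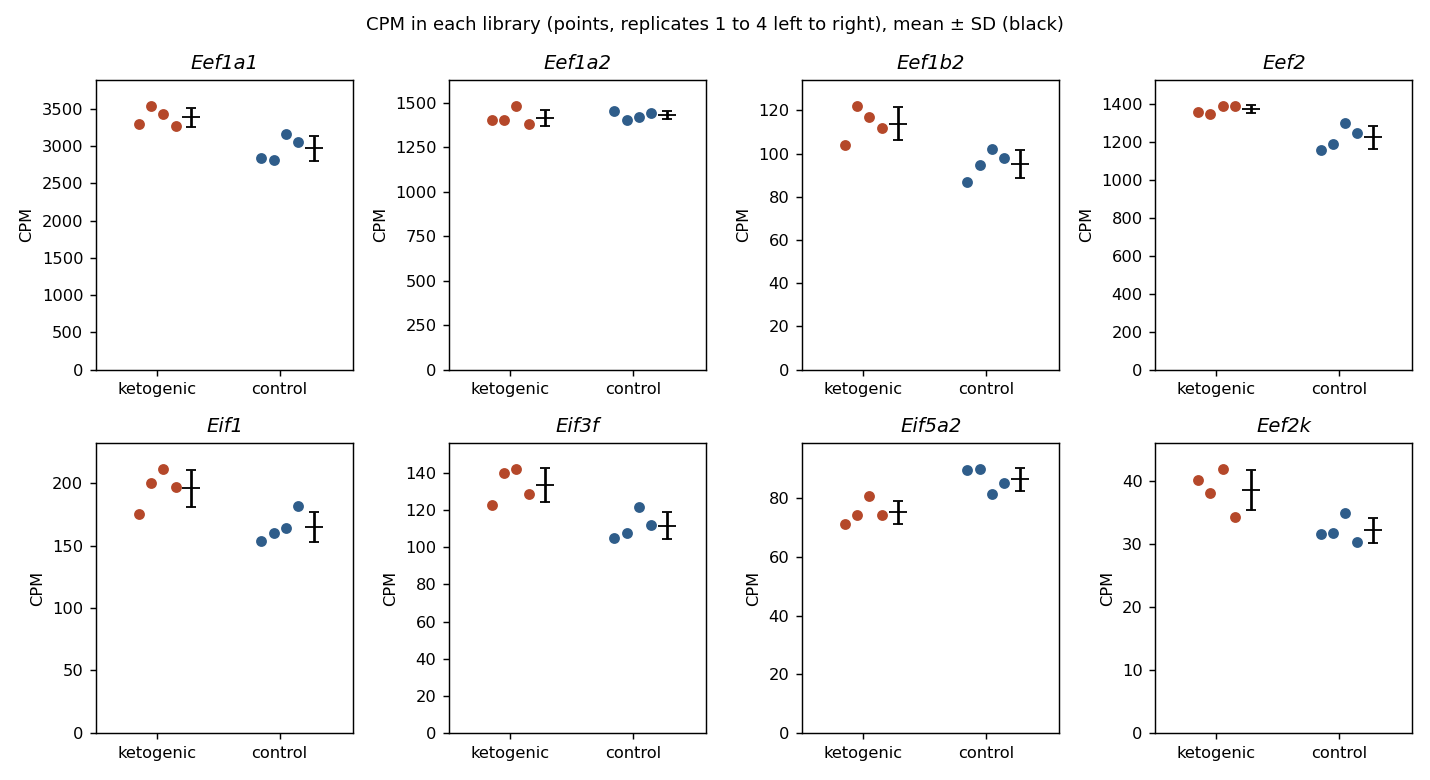
CPM of 8 translation factor genes (vertical axes, from 0) in ketogenic and control libraries. Points are the 4 replicates of each group and black marks the mean ± SD. Ketogenic points lie above all control points for Eef1a1, Eef1b2, Eef2 and Eif3f, and below them for Eif5a2. The groups overlap for Eef1a2, Eif1 and Eef2k.

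Of the 6 core elongation genes, 4 had groups that did not overlap, all higher in ketogenic libraries. Of the 42 tested core initiation genes, 10 did not overlap, 5 higher and 5 lower. Over all tested genes 13.7% did not overlap, 7.22% higher and 6.51% lower. The summed level of the 6 was 6505, 6803, 6815 and 6525 CPM in ketogenic and 5877, 5831, 6332 and 6191 CPM in control libraries. The 43 core initiation genes summed to 6105, 6113, 6301 and 6042 CPM in ketogenic and 6186, 6015, 6308 and 6063 CPM in control libraries. The elongation sum is made up mostly of Eef1a1, Eef1a2 and Eef2, while no single gene makes up most of the initiation sum. The ratio of elongation to initiation sums was 1.07, 1.11, 1.08 and 1.08 in ketogenic libraries, above the 0.95, 0.969, 1.0 and 1.02 of the controls. Its means were 1.09 ± 0.02 in ketogenic and 0.986 ± 0.0321 in control libraries (SD, n = 4 each).

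**Figure D2:**
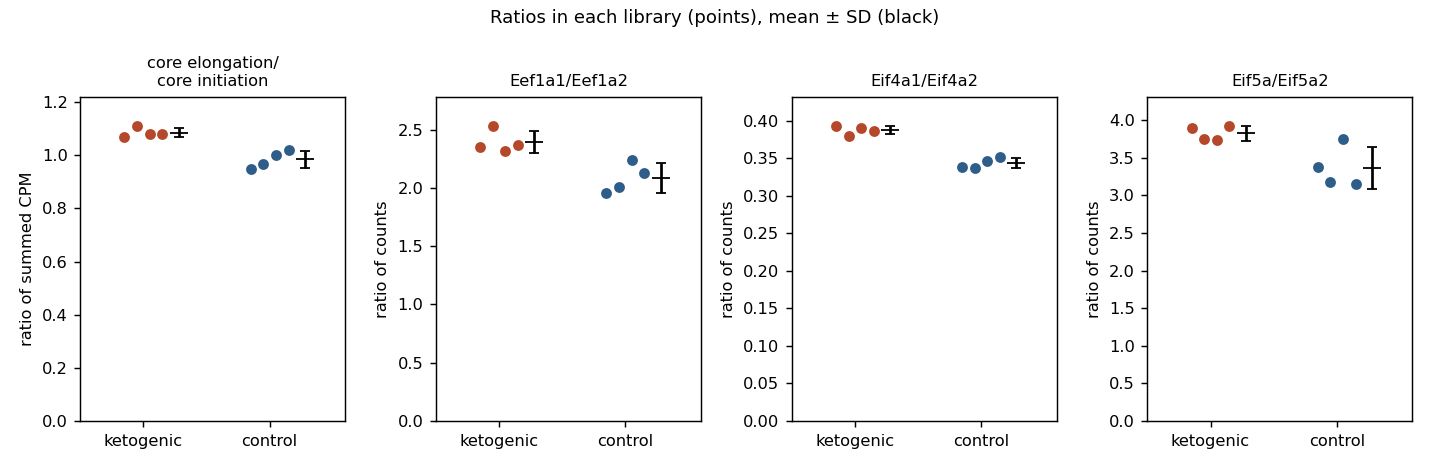
Ratios in each library (points, replicates 1 to 4 from left to right in each group) with mean ± SD in black: summed CPM of core elongation over core initiation genes, and count ratios of Eef1a1 to Eef1a2, Eif4a1 to Eif4a2 and Eif5a to Eif5a2. Ketogenic libraries lie above all controls for the first 3 ratios and overlap with them for the last.

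Among the factors that select the start codon, Eif1, which guards the accuracy of scanning, rose. Eif1 (chr11:100319885-100322096) had 175, 200, 211 and 197 CPM in ketogenic libraries, against 154, 160, 164 and 182 CPM in controls. Its log2 fold change was 0.25 ± 0.07 with an edgeR adjusted p of 0.0362, and ketogenic replicate 1 lay below control replicate 4. GENCODE names 3 pseudogenes after Eif1, among which the counting could split reads. Pseudogenes under other names were not searched for, for Eif1 or for any other member, Eef1a1 included. The other 4 genes of this role (Eif1b, Eif1ax, Eif1a and Eif5) did not pass, with log2 differences from -0.12 for Eif1a to 0.15 for Eif1b.

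Neither subunit gene of eIF2 that was examined passed. Eif2s1, which encodes the subunit phosphorylated under stress, gave -0.11 ± 0.07 (adjusted p = 0.336) and Eif2s2 gave -0.20 ± 0.08 (adjusted p = 0.125). For the exchange factor eIF2B, the log2 differences of all 5 subunit genes were above 0, between 0.05 and 0.14. However, 0 of 5 passed, beside 6.52% of all tested genes, and the groups overlapped for each of the 5. Eif2b5, which encodes the catalytic subunit, had 64.2, 64.3, 55.4 and 55.8 CPM in ketogenic and 49.0, 55.7, 60.8 and 56.9 CPM in control libraries. Eif2b2 gave the highest of the 5 values, 0.14 ± 0.07 (adjusted p = 0.273). Eif2a, an alternative carrier of initiator tRNA, gave -0.15 ± 0.07 (adjusted p = 0.219).

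Beside 6.52% of all tested genes, 1 of the 14 tested eIF3 genes (7.14%) passed. This was Eif3f (chr7:108934417-108942951), which had 123, 140, 142 and 129 CPM in ketogenic libraries and 105, 108, 122 and 112 CPM in controls, with no overlap. Its rise of 0.26 ± 0.06 on the log2 scale had the lowest adjusted p of the members, 0.0279. Signs were mixed in the complex, with 9 of the 14 differences above 0 and 5 below. Eif3b, Eif3i and Eif3g gave 0.19, 0.18 and 0.17 and Eif3a gave -0.15, none past the threshold. Eif3h, the most abundant of the complex by the deposited gene lengths, gave -0.07 ± 0.05. The widest difference belonged to Eif3j2, a near-identical copy of Eif3j1 counted at 0.832 to 2.56 CPM in ketogenic and 2.12 to 4.09 CPM in control libraries. It was -0.98 ± 0.34 with overlapping groups (adjusted p = 0.0903), and reads of the copies could be split by the counting.

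Among the genes for recruitment of the message 0 of 10 passed, beside 6.52% of all tested genes, and the 10 differences had both signs. All 3 tested cap-binding genes lay below 0. Eif4e, the cap-binding subunit, had 97.0, 99.2, 103 and 103 CPM in ketogenic and 118, 109, 116 and 107 CPM in control libraries. Those groups did not overlap, but the log2 difference of -0.16 ± 0.05 did not pass (adjusted p = 0.0765). The scaffold gene Eif4g1 gave 0.05 ± 0.05, while its relatives Eif4g3 and Eif4g2 gave -0.15 ± 0.06 and -0.11 ± 0.05. The helicase Eif4a1 had 236, 240, 245 and 234 CPM in ketogenic libraries, all above the 203, 202, 220 and 226 CPM of the controls, with a difference of 0.17 ± 0.05 that did not pass (adjusted p = 0.0669). Its paralogue Eif4a2, the more abundant form by counts, gave -0.01 ± 0.05 (adjusted p = 0.949). The count ratio of Eif4a1 to Eif4a2 was 0.393, 0.38, 0.39 and 0.387 in ketogenic and 0.339, 0.337, 0.346 and 0.352 in control libraries. The pair differ in GC content (48.3% for Eif4a1 and 40.2% for Eif4a2), and after correction for GC content and length the log2 differences were 0.19 for Eif4a1 and 0.12 for Eif4a2. The Eif4a2 values rest on its deposited gene length of 4560 bases, against 2208 in its principal GENCODE transcript.

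Late in initiation, Eif5b, the GTPase that joins the subunits, gave -0.18 ± 0.07 (adjusted p = 0.0999). Eif6, which keeps free large subunits from joining, gave 0.25 ± 0.07 without passing (adjusted p = 0.0576), at 26.5, 28.9, 30.6 and 29.1 CPM in ketogenic and 23.9, 23.5, 23.4 and 26.1 CPM in control libraries. The eIF5A proteins carry the amino acid hypusine and act in elongation as well as in initiation. Eif5a2 (chr3:28781276-28798846) was the only member of the 60 tested that fell in the edgeR fit, with 71.3, 74.4, 80.6 and 74.4 CPM in ketogenic libraries and 89.5, 89.8, 81.5 and 85.1 CPM in controls. Its log2 fold change was -0.20 ± 0.06 (adjusted p = 0.0473). Ketogenic replicate 3 and control replicate 3 lay close to each other. Its paralogue Eif5a gave -0.02 ± 0.05 (adjusted p = 0.891), and their count ratio overlapped between the groups, at 3.82 ± 0.0961 in ketogenic and 3.36 ± 0.274 in control libraries (SD, n = 4 each).

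Among the inhibitors of eIF4E, Eif4ebp2, the form most abundant in brain here, had 31.6, 31.0, 35.8 and 32.7 CPM in ketogenic and 41.2, 35.9, 34.9 and 36.2 CPM in control libraries (log2 difference -0.18 ± 0.07, adjusted p = 0.153). Eif4ebp1 stood near 2 CPM in both groups and gave 0.11 ± 0.23. The exon junction helicase Eif4a3 and the eIF1-like gene Eif1ad, placed beside the initiation factors by name, gave 0.12 ± 0.06 and 0.25 ± 0.09 and did not pass. The 4 members not tested for low counts were Eef1akmt3, Eef1akmt4, Eif4a3l1 and Eif4e1b, which had at most 13 counts in any library.

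**Figure D3:**
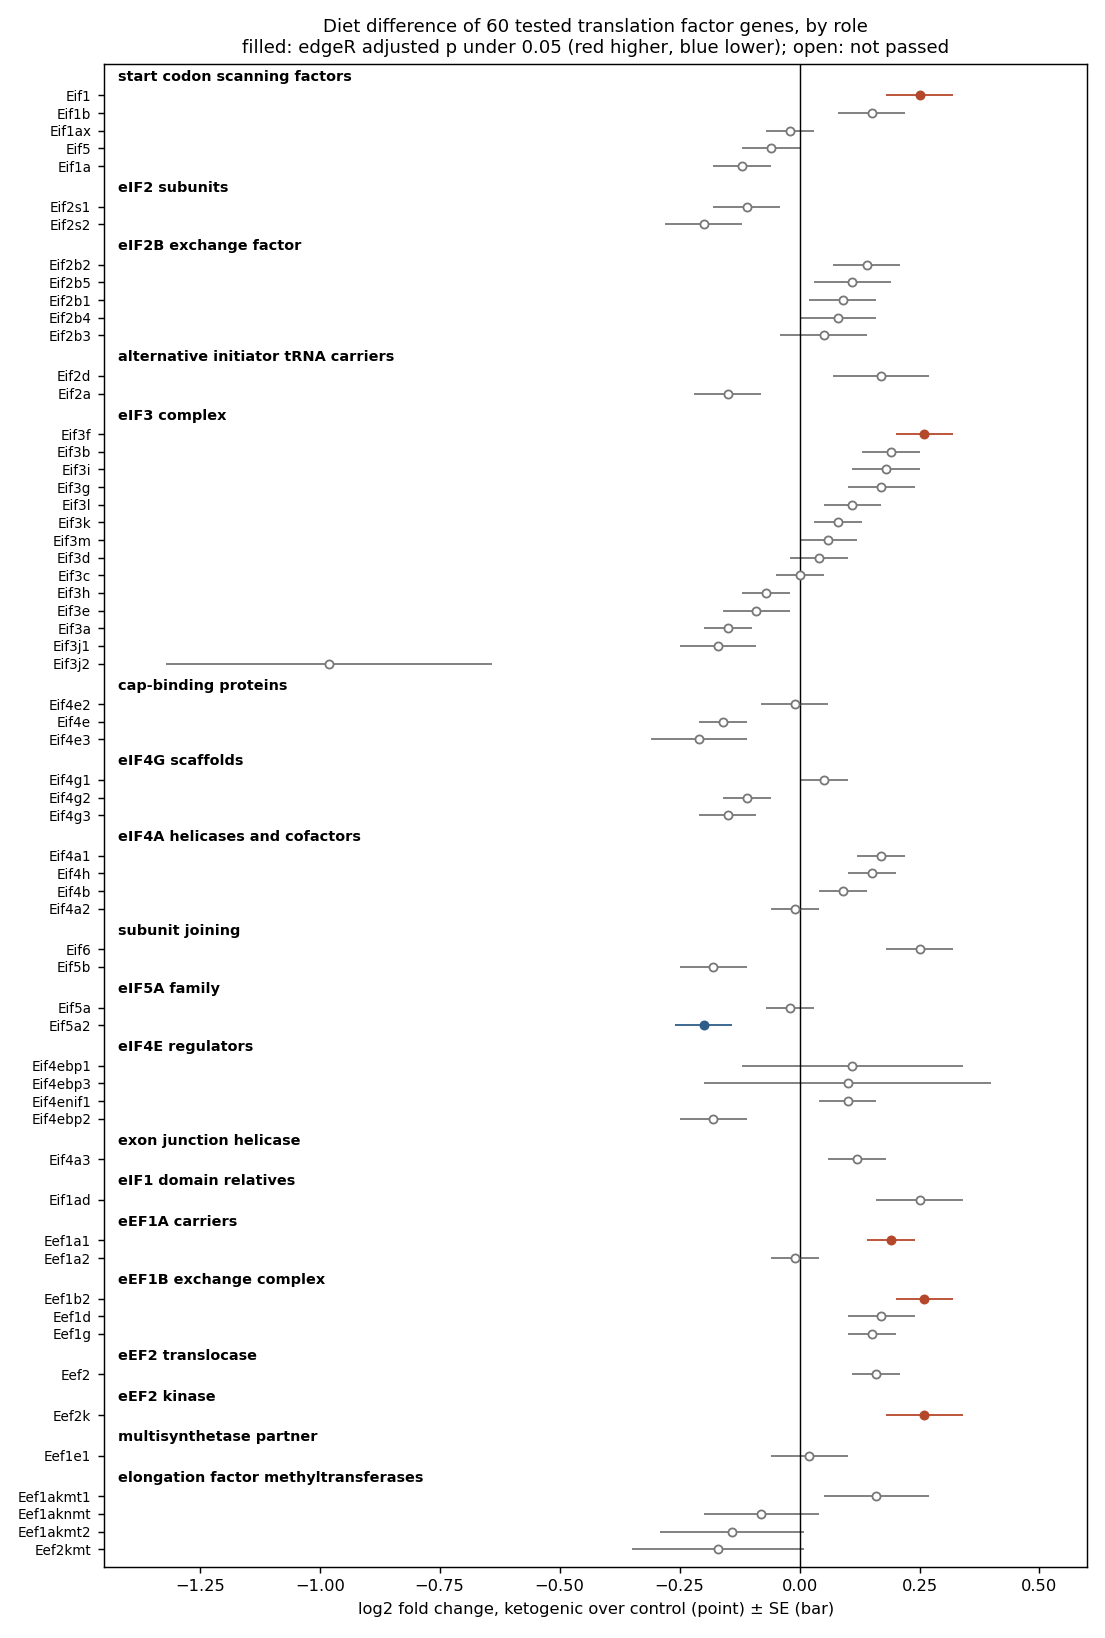
Log2 fold change, ketogenic over control (horizontal axis, point ± SE), of the 60 tested genes grouped by role. Filled points passed an edgeR adjusted p under 0.05. Core elongation genes other than Eef1a2 lie between 0.15 and 0.26, while initiation genes lie on both sides of 0.

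By the deposited lengths, the order of levels was led by elongation factors. In FPKM, the count scaled by gene length and library total, Eef1a1 was rank 1 of all 17983 genes, at 1890 ± 78 in ketogenic and 1660 ± 98.8 in control libraries (SD, n = 4 each). Eef2 followed among the members at 443 and 395 FPKM, then Eef1g at 194 and 175 FPKM and Eef1a2 at 178 in each group. Eif5a (153 and 154), Eif3h (149 and 155), Eif1 (156 and 130), Eif4a2 (135 and 136) and Eif4h (135 and 121) came next, in ketogenic and control libraries in that order. The place of Eef1a2 rests on the length behind the deposited FPKM, which works out at 7980 bases, whereas its principal GENCODE transcript has 2084. By the deposited lengths Eef1a1 was 10 times Eef1a2 over all libraries, and by the principal transcripts 2.61 times. The place of Eif4a2 rests on length too, as it works out at 4560 bases against 2208. Per kilobase of principal transcript Eif4a2 had a mean of 280 CPM, above Eef1g at 155 CPM. At the low end of the tested members stood Eif3j2, at 0.583 FPKM in ketogenic and 1.15 in control libraries.

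Over the members, the diet difference followed the GC content of the transcript. Of the 17 tested members with under 45% GC, 1 had a log2 difference above 0 and 16 below, with a median of -0.14. Of the 43 at or above 45%, 34 were above 0 and 9 below, with a median of 0.11. The same split over all tested genes gave medians of -0.09 and 0.03. Across genes, which are not independent replicates and share the same 8 libraries, Spearman's rho between GC content and log2 difference was 0.45 for the 60 tested members (Pearson's r 0.51), 0.69 for the 42 core initiation genes (r 0.64) and 0.30 for 14792 tested genes with a known GC content (r 0.24). With log2 length the rho was -0.35 for the members and -0.51 for core initiation genes.

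When a smooth trend on GC content and length was removed from each library, 2.01% of all tested genes passed. Eef1b2 (log2 fold change 0.30, edgeR adjusted p = 0.0247) and Eif3f (0.25, adjusted p = 0.0434) still passed. Eef1a1 (0.21, adjusted p = 0.0607), Eif1 (0.22, adjusted p = 0.0847) and Eef2k (0.26, adjusted p = 0.112) gave changes of like size and did not pass. Eif5a2, the transcript lowest in GC of the tested members at 38.8%, gave -0.05 (adjusted p = 0.708). The median of core elongation genes was then 0.16 and that of core initiation genes stayed 0.02. Members with under 45% GC had a median of -0.02 after the removal, and the others one of 0.08. Spearman's rho between GC content and log2 difference was then 0.14 for the members, 0.36 for core initiation genes and -0.01 for all tested genes with a known GC content.

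**Figure D4:**
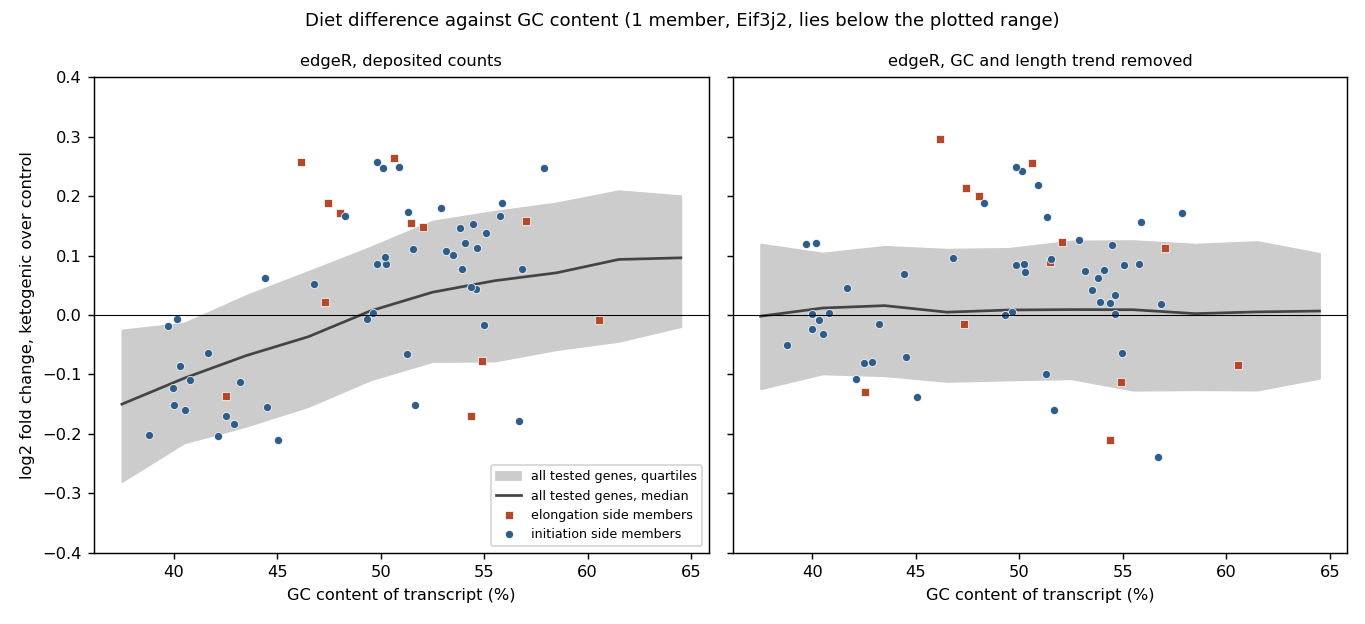
Log2 fold change, ketogenic over control, against GC content of the transcript in percent, for elongation side (squares) and initiation side (circles) members, before (left) and after (right) removal of the GC and length trend. The line and band give the median and quartiles of all tested genes. On the left 16 of the 17 members under 45% GC lie below 0, and on the right their median is -0.02.

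Each of the 6 calls was lost when certain libraries were left out. Eef1b2 and Eif3f passed in 5 of the 8 fits that left out 1 library, and did not without ketogenic replicate 2, control replicate 1 or control replicate 2. Eef1a1, Eif1 and Eif5a2 passed in 2 of the 8, and Eef2k in 1. The share of all genes that passed was 3.91%, 1.31%, 4.75% and 3.58% without ketogenic replicates 1 to 4 in turn, and 0.971%, 1.36%, 2.81% and 12.7% without control replicates 1 to 4. Without ketogenic replicate 3, which stood apart on the first principal component, Eef1b2, Eif3f and Eif5a2 passed and Eef1a1, Eif1 and Eef2k did not. Without ketogenic replicates 3 and 4 together, 0 core initiation and 0 core elongation genes passed, beside 90 genes in all. Across those fits, the highest adjusted p was 0.105 for Eef1b2, 0.0955 for Eif3f, 0.137 for Eef1a1, 0.122 for Eif1, 0.132 for Eif5a2 and 0.128 for Eef2k. Without control replicate 4 the calls grew to 7 higher and 7 lower core initiation genes and 3 higher core elongation genes. Among the controls, that library held the highest values of Eif1, Eif3b, Eif3i, Eif4a1, Eif4h and Eif6. It also held the lowest control values of Eif2a, Eif2s2, Eif3a, Eif4e, Eif4g3 and Eif5b. All these genes were picked because they passed without that library. Such a choice favours genes for which it lay nearest the ketogenic values.

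**Figure D5:**
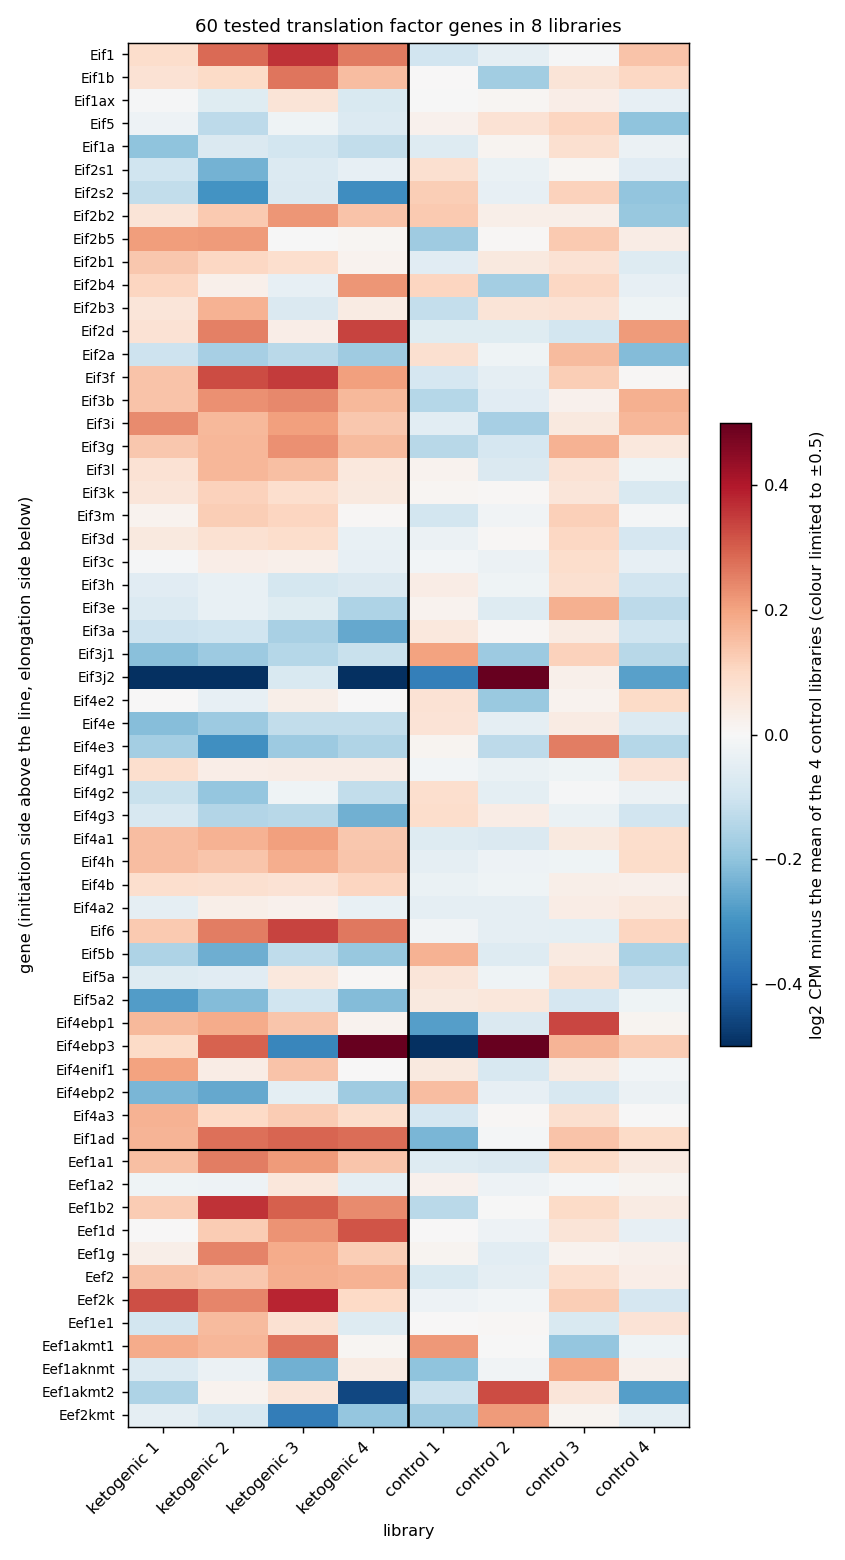
Log2 CPM minus the mean of the 4 control libraries (colour, limited to ±0.5) for the 60 tested genes (rows, initiation side above the horizontal line) in the 8 libraries (columns). Core elongation rows other than Eef1a2 are red across the ketogenic columns, near 0 in ketogenic replicate 1 for Eef1d and Eef1g. Initiation rows run in both directions.

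Calls in neighbouring parts of the translation machinery are set beside the 6.52% of all tested genes that passed, 3.30% higher and 3.22% lower. Outside the ribosome, lists this short would hold few calls or none at that share. Of the kinases and phosphatase partners of eIF2, 0 of 6 passed, as did 0 of 7 kinases that act on eIF4E and its binding proteins. Likewise 0 of 12 poly(A)-binding and accessory proteins, 0 of 22 cytosolic aminoacyl-tRNA synthetase genes, 0 of 9 hypusine and diphthamide enzymes and 0 of 9 mitochondrial translation factors passed. Abce1, which splits ribosomes after termination, was the 1 of 6 termination and recycling genes that fell, with a log2 fold change of -0.27 ± 0.06 (edgeR adjusted p = 0.016), a call lost after correction for GC content and length (adjusted p = 0.158). Among 15 genes described as having terminal pyrimidine runs, a list made up mostly of members, 4 rose and 0 fell. These were the members Eef1a1, Eef1b2 and Eif3f, already counted above, and Rack1, a small-subunit scaffold (0.31 ± 0.06). The median of the 15 was 0.15. Besides Rack1, the listed genes that are not members did not pass. They gave 0.22 for Tpt1, -0.02 for Hnrnpa1, -0.04 for Npm1, -0.07 for Pabpc1 and -0.17 for Nap1l1. Of 82 tested cytosolic ribosomal protein genes, 41 rose and 0 fell, with a median of 0.24, beside 0.17 for the core elongation genes. After correction for GC content and length, 13 ribosomal protein genes rose and 1 fell, where 2.01% of all tested genes passed. The medians were then 0.15 for the ribosomal protein genes and 0.16 for the core elongation genes.

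Some markers of cell types passed as well, beside 3.30% of all tested genes higher and 3.22% lower. Astrocyte markers fell in 4 of 6 (Gfap, Aqp4, Aldh1l1 and Gja1), with summed levels of 3520 to 4070 CPM in ketogenic and 3720 to 4480 CPM in control libraries. Erythroid markers rose in 4 of 5, summing to 69.4 to 114 CPM in ketogenic and 15.3 to 52.4 CPM in control libraries, and microglial markers in 1 of 6 (Tmem119). After correction for GC content and length the calls of Gja1 (edgeR adjusted p = 0.0522) and Tmem119 (adjusted p = 0.0899) were lost. That left 3 astrocyte, 4 erythroid and 0 microglial markers past the threshold, beside 2.01% of all tested genes. Of the markers of oligodendrocytes, their precursors, endothelial cells and choroid plexus, 0 passed, and choroid plexus sums were 1040 to 1340 CPM in ketogenic and 572 to 1110 CPM in control libraries. No marker was at 0 in any library. The part of these cell types in the differences of the translation factors was not tested.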

How the data were processed

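Per the labels, RNA was column-purified from brain and libraries were made with a SMARTer messenger RNA kit. The authors deposited whole-number read counts per gene symbol and FPKM values for the same 8 libraries. The submitters' processing notes name GRCm38 and mm10, while no aligner, counter, strand setting or annotation is named in the sources used here. The FPKM values equal counts divided by 1 length per gene and the column total (largest relative spread of the implied length 1.79e-07), so they add only lengths.

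Ketogenic was compared with control over all genes with edgeR 4.0.16 (R 4.3.3) on the counts: TMM factors, its filter on low counts (14895 kept, 3088 left out), quasi-likelihood F test, Benjamini-Hochberg adjustment over all tested genes, threshold 0.05. Standard errors (SE) were derived from the fold change and the F statistic. Library sizes for CPM include the TMM factor. The script was tested on simulated data. Alternatives used DESeq2 1.42.0, limma 3.58.1 (voom, and log2(FPKM + 1) or log2(FPKM + 0.1)), other scalings, filters and thresholds, a replicate block, and offsets removing a loess trend (span 0.3) on GC content and log2 length (GC known for 99.3% of tested genes). Coordinates are GENCODE M21 gene bounds on GRCm38, and all 64 members matched. Of the members, 18 overlap another coding gene and are uncertain where counting ignored strand, 5 of them on the same strand. The upper limit given further on for a count of 0 covers counting error only, while SD and SE include the spread between libraries.

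The members, roles and lists were chosen with earlier results of these data known. Genes named were the members past the threshold, the member highest in FPKM in each of 19 roles, 14 fixed by name and, from neighbouring lists, up to 4 past the threshold. Other members were named after their values were seen.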

Additional observations from a re-analysis of the deposited data

Results flagged for a closer look

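With 4 libraries in a group, 6 of 120 groups of CPM values among the tested members had 1 library far from the other 3, where chance gives about 1 in 20. Eef1g was lowest in control replicate 2, at 264 CPM, against 276 to 278 in the other controls. Eif1ad was lowest in ketogenic replicate 1, at 24.5 CPM, against 26.4 to 26.7 in the other ketogenic libraries. Eif4g1 was highest in ketogenic replicate 1, at 343 CPM against 330 to 332, and, among controls, in replicate 4, at 339 CPM against 316 to 320. Control replicate 4 also held the highest control values of Eif2d, a non-canonical carrier of initiator tRNA (22.4 CPM against 18.1 to 18.6), and Eif4h, a cofactor of eIF4A (324 CPM against 294 to 298). Eef1g and Eif4h were higher in all ketogenic than in all control libraries, and the groups of Eif4g1 and Eif2d overlapped.

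Among the members left untested for low counts, Eif4a3l1, a copy of Eif4a3, had 8 counts in ketogenic replicate 1 and 0 in the other 7 libraries. Eif4e1b, a cap-binding relative known from oocytes, had 7 counts in ketogenic replicate 4 and 0 in the other 7. A count of 0 allows up to 3 counts per library.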

How the results depend on the processing

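Counts are given in the order all genes, core initiation higher, core initiation lower and core elongation higher, with 971, 2, 1 and 2 as reported. Scaling by DESeq2 size factors, library size or upper quartile, dropping the low-count filter, requiring a mean CPM of 1, and limma-voom kept each within 1.5 times. The DESeq2 Wald test gave 1774, 6, 3 and 3. Limma on log2(FPKM + 1) gave 489, 2, 0 and 0, and on log2(FPKM + 0.1) 560, 2, 0 and 0. Correction for GC content and length gave 299, 1, 0 and 1. At an adjusted p under 0.01 they were 79, 0, 0 and 0, and under 0.1, 2009, 6, 5 and 3. Leaving out ketogenic replicates 3 and 4 together gave 90, 0, 0 and 0. Leaving out 1 library gave 146 to 1900, 0 to 7, 0 to 7 and 0 to 3. Core elongation genes lower were 0 throughout, except 1 (Eif5a2) with the eIF5A family counted as elongation, which left 0 initiation genes lower. At unadjusted p under 0.05, 8 core initiation genes were higher and 9 lower, and 5 core elongation genes higher and 0 lower, beside 24.6% of all genes (12.1% higher and 12.5% lower). The medians moved by less than their spread between libraries. The cause of each change was not tested, beyond fewer libraries or another threshold.

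Same-numbered libraries correlated at 0.0218 to 0.0759, under the 0.1 needed to treat them as pairs, and different-numbered libraries at -0.09 to 0.0851. Whether same-numbered libraries share a batch or a pairing was not tested. A replicate block gave 1528, 4, 3 and 3, and with that correction added 782, 2, 0 and 2. Named genes changed sign, none of them past the threshold, as follows. Under the correction, with or without the block, Eef1e1 gave -0.02, Eif2s1 0.00 and Eif4a2 0.12. Without single libraries, Eef1e1 ranged over -0.03 to 0.06, Eef1a2 over -0.03 to 0.00 (0.00357 without ketogenic replicate 4), Eif4a2 over -0.02 to 0.01 and Eif5a over -0.05 to 0.01.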
